A study of Mus musculus with 6 samples.

Results

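The genes for the protein parts of the mitochondrial ribosome were followed in cells sorted from the mouse stomach. They were taken as every gene whose symbol starts with Mrpl or Mrps and a digit, for the large and the small subunit, with the single pseudogene symbol left out. This gave 76 of the 23049 genes in the table, 47 named Mrpl and 29 named Mrps. Both sample groups held F4/80-positive cells, sorted as macrophages from the corpus of mice. In the first group the mice had received DMP-777, a compound given to induce spasmolytic polypeptide-expressing metaplasia (SPEM), in which the acid-secreting glands lose their parietal cells and turn to mucus-secreting cells. In the second group the mice had received L635, given to induce SPEM with intestinal features. There were 3 libraries per treatment, called replicates 1 to 3. Untreated mice were not analysed here. The sources used here do not give strain, sex, age, dose, treatment time or the number of animals behind each library. The p-values therefore measure only how these samples vary, and part of that may be technical. The 2 treatments cannot be told apart from any difference in dose or time between them.

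The mitochondrial ribosome sits in the mitochondrial matrix and translates the few messages of mitochondrial DNA, which encode core subunits of the respiratory chain and the ATP synthase. Its RNAs come from mitochondrial DNA, and all of its proteins come from nuclear genes, are made in the cytosol and are imported. Some of these proteins descend from the bacterial ribosome and others were added in mitochondria. Macrophages draw on respiration to different degrees in different activation states, and parietal cells are among the cells richest in mitochondria.

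The sorted material was checked against marker genes. Of 16 macrophage markers 15 were found, with a summed level of 1731 to 3011 RPKM in DMP-777 and 1579 to 2970 in L635 (RPKM, reads scaled by gene length and library depth). Emr1, which encodes F4/80, had 46.1, 88.5 and 94.3 RPKM in replicates 1 to 3 of DMP-777 and 97.9, 127 and 41.3 in those of L635. Transcripts of other cells were present in every library. The 8 surface mucous cell markers summed to 4919 to 12400 RPKM in DMP-777 and 2890 to 3416 in L635, so that these groups did not overlap. The 12 general epithelial markers summed to 926 to 1367 RPKM in DMP-777 and 741 to 1012 in L635. The 9 parietal cell markers summed to 544 to 1365 RPKM in DMP-777 and 249 to 899 in L635, with Slc26a7 at the lowest listed value, 1, in every library. The mast cell markers summed to 203 to 394 RPKM in DMP-777 and 9.15 to 934 in L635. The eosinophil markers summed to 160 RPKM in L635 replicate 2, the library with the lowest mitoribosomal level, and to 12.9 to 36.4 in the other 5. The neutrophil markers summed to 39.2 to 68.2 RPKM, and those of fibroblasts and endothelium to 10.7 to 71.6. Within these lists and that of T and NK cells, Epx, Ly6g, Elane, Kdr, Cd3g and Lck were at the lowest listed value throughout. In such bulk samples, fewer cells of a type and less RNA per cell cannot be told apart.

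The stretches just upstream of annotated gene starts are shown for 4 of the genes, because they are the regulatory sequence that genes of one complex could share. They are the 2 genes with the lowest log2 difference between L635 and DMP-777 (Mrpl22 and Mrpl34) and the one with the highest (Mrps9). Mrpl9 is one of the 3 with GCGCATGCGC, a single spelling of the NRF1 motif. NRF1 and the ETS factor GABP are known activators of nuclear genes for mitochondrial proteins. The sequences are from RefSeq (GRCm38.p6), 5′ to 3′ on the plus strand and without exon bases. Capitals mark CCGGAAG (ETS) in the first 2 and GCGCATGCGC (NRF1) in Mrpl9, on either strand. Mrps9 holds neither of these sequences. The windows lie at chr11:58171414-58171660, chr8:71464676-71464925, chr3:94443086-94443317 and chr1:42850983-42851232, in the order shown.
Mrpl22: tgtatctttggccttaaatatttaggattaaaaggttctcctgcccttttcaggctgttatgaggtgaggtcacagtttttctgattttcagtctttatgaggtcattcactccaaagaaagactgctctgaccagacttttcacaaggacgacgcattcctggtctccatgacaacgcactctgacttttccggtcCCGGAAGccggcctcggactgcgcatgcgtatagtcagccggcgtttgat
Mrpl34: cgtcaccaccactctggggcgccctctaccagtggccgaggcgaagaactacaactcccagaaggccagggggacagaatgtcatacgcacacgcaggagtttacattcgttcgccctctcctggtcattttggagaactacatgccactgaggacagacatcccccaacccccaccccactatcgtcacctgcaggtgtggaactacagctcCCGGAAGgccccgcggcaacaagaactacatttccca
Mrpl9: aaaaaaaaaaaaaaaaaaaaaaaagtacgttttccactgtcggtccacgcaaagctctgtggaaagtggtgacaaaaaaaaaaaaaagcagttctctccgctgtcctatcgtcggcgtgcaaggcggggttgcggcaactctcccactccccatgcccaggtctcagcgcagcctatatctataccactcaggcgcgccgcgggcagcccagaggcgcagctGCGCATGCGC
Mrps9: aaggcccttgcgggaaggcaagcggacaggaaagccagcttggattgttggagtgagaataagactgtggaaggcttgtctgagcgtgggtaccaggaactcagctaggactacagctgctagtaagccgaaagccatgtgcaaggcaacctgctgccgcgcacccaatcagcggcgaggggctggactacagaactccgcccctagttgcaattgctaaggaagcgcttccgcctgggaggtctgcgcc

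RefSeq windows were matched for 67 of the 76 genes, 73 windows in all, since some genes have several starts and their windows can overlap. CCGGAAG, searched on both strands in the 250 bases before the start, was found in 17 of the 73 windows (23.3%), against 6.91% of all windows and 13.2% of the windows of tested genes. GCGCATGCGC, which reads the same on both strands, was found in 3 windows (4.11%), against 0.783% of all windows and 1.64% of those of tested genes. AAGATGGC, the core bound by YY1, was found in 4 windows (5.48%), against 1.56% and 1.94%. The median log2 difference (L635 minus DMP-777) was -0.63 over the 17 genes with CCGGAAG and -0.69 over the 50 genes without it.

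The level of the mitoribosomal genes differed between libraries of the same treatment as well as between treatments. The median over the 76 genes was 18.85, 32.2 and 24.9 RPKM in replicates 1, 2 and 3 of DMP-777, and 18.91, 10.3 and 15.5 RPKM in those of L635. DMP-777 replicate 2 stood highest and L635 replicate 2 lowest, and the groups touched, with DMP-777 replicate 1 just under L635 replicate 1. Of the 76 genes, 46 had their highest value in DMP-777 replicate 2 and 49 their lowest in L635 replicate 2. The genes together made up 0.872%, 1.07% and 0.855% of the summed RPKM in DMP-777 replicates 1 to 3 and 0.703%, 0.538% and 0.699% in L635 replicates 1 to 3, and by this measure the groups did not overlap. The median of all 12102 tested genes varied less, from 3.0 to 3.14 in DMP-777 and from 2.93 to 3.30 in L635 on the log2(RPKM + 1) scale, on which the mitoribosomal medians ran from 4.31 to 5.05 and from 3.5 to 4.32.

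**Figure D1:**
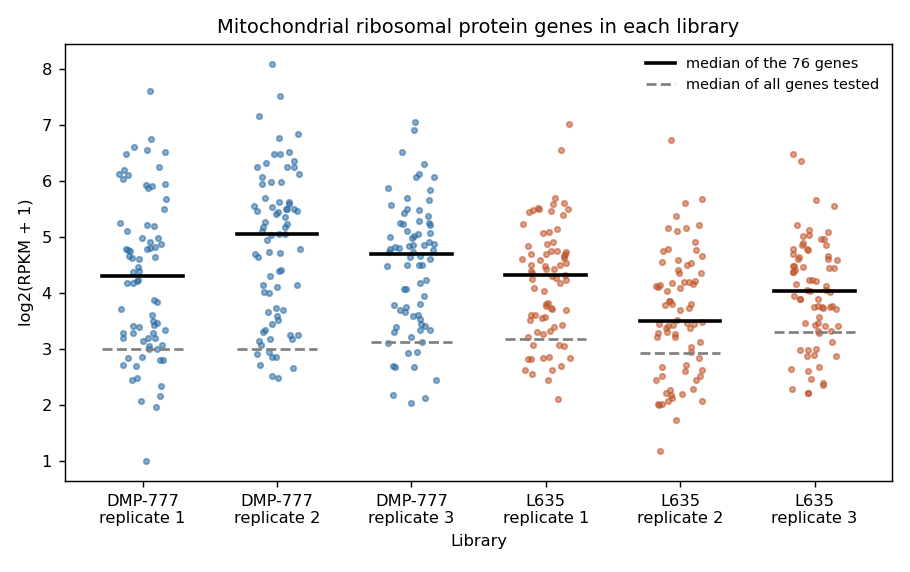
Levels of the 76 mitoribosomal genes in each of the 6 libraries on the log2(RPKM + 1) scale, with the median of these genes and of all tested genes. The mitoribosomal median is highest in DMP-777 replicate 2 (5.05) and lowest in L635 replicate 2 (3.5), while the median of all tested genes stays between 2.93 and 3.30.

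In the comparison of L635 with DMP-777, 69 of the 76 genes were lower and 7 higher in L635, while 49.8% of all tested genes were lower. The median log2 difference (L635 minus DMP-777 on the log2(RPKM + 1) scale) was -0.61 (quartiles -0.86 and -0.30), against 0.00 over all tested genes. No single gene passed the test. With limma on log2(RPKM + 1), 0 of the 76 genes and 0 of all 12102 (0%) had an adjusted p below 0.05. At an unadjusted p below 0.05, 25 of the 76 were lower (32.9%) and 0 higher, against 6.33% of all genes lower and 3.78% higher. All 3 L635 values lay below all 3 DMP-777 values in 33 genes (43.4%) and above them in 1, against 8.75% and 7.25% of all genes. In data simulated for this comparison, the test found 12.8% of genes given a log2 difference of 1 and 85.1% of those given one of 2. The changed genes were drawn from those above the median level, with independent noise for each gene. These rates therefore do not cover low genes or shifts of whole libraries. The 95% interval of a mitoribosomal gene reached 0.81 to either side of its fold change in the median.

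The number of genes at an unadjusted p below 0.05 depended on single libraries and on the processing. It was 13 (17.1%) without DMP-777 replicate 2 and 15 (19.7%) without L635 replicate 2, the libraries with the highest and the lowest median. The share of all genes lower at that p fell too, to 3.5% and 3.65%. After quantile normalization it was 16 (21.1%), against 4.88% of all genes. With the level of general epithelial markers in the fit it was 5 (6.58%), against 118 of all 12102 genes, and the median was -0.33. That level, the mean log2(RPKM + 1) of the 10 such markers tested, was 6.47, 6.6 and 6.14 in DMP-777 replicates 1 to 3 and 6.34, 5.96 and 5.96 in L635 replicates 1 to 3. The part of epithelial, surface mucous and parietal transcripts in the lower mitoribosomal levels was not tested beyond that fit.

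**Figure D2:**
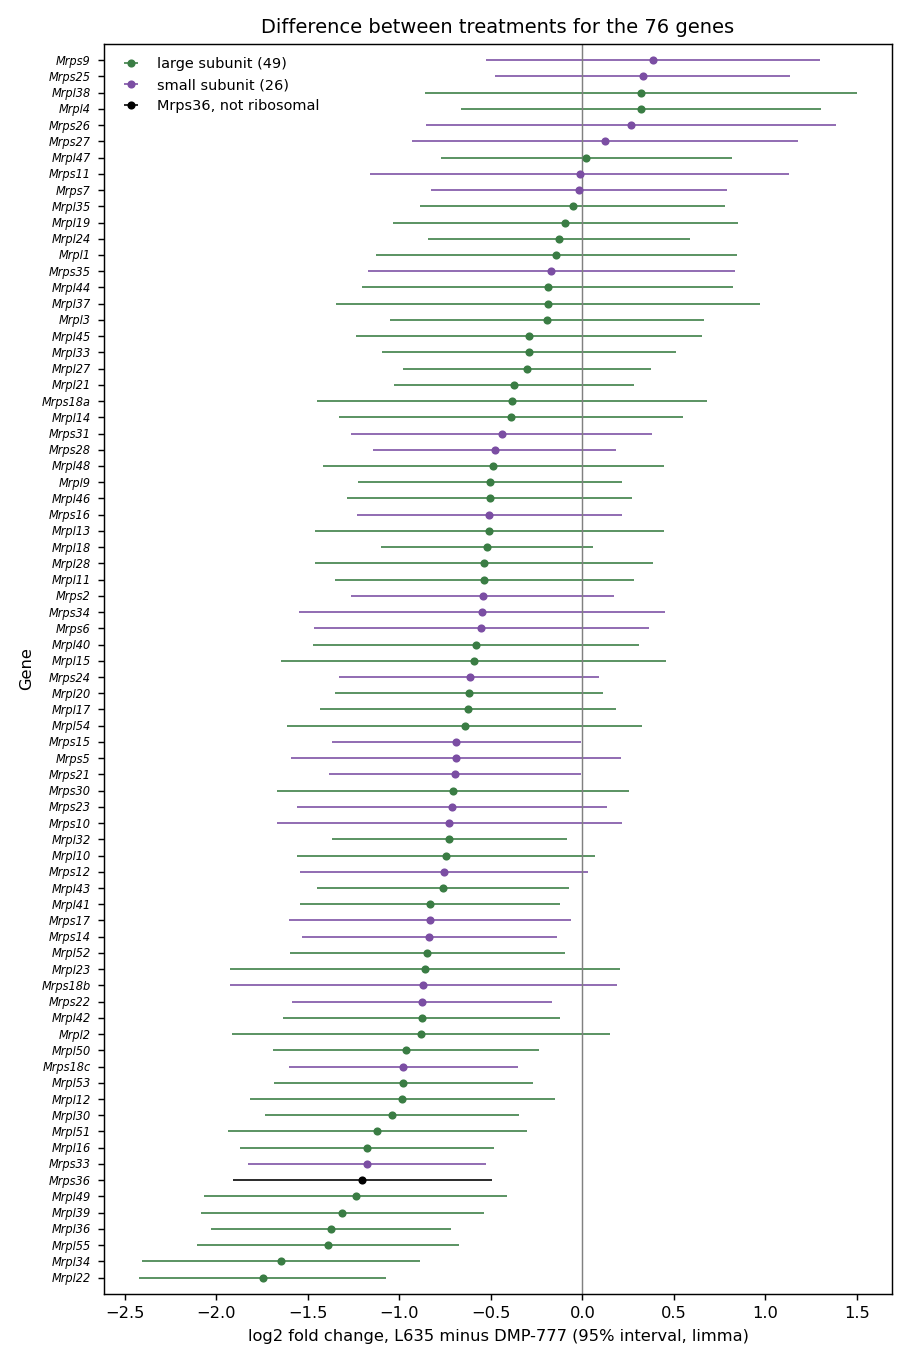
Log2 fold change (L635 minus DMP-777, on log2(RPKM + 1)) with 95% interval for each of the 76 genes, ordered by value. Of these, 69 lie below 0, from -1.75 for Mrpl22 to 0.39 for Mrps9 at the other end.

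Both subunits and both evolutionary classes lay on the same side. Of the 49 genes whose products are now placed in the large subunit, 46 were lower, with a median of -0.59 and 17 at an unadjusted p below 0.05. Of the 26 of the small subunit, 22 were lower, with a median of -0.58 and 7 at an unadjusted p below 0.05. The 46 genes with bacterial counterparts had a median of -0.57, and the 29 found only in mitochondrial ribosomes had one of -0.64. The remaining gene, Mrps36, encodes a protein now known as a part of the 2-oxoglutarate dehydrogenase complex (Kgd4), not of the ribosome. Its values, here and for the following genes in the order of replicates 1, 2 and 3, were 60.2, 79.2 and 43.5 RPKM after DMP-777 and 34.3, 22.2 and 20.8 after L635. Its groups did not overlap, with a log2 difference of -1.20 and a limma adjusted p of 0.406.

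Mrpl22 had the smallest p among these genes and the third smallest of all tested genes. Its product lines the tunnel through which the new peptide leaves the large subunit, and the gene lies at chr11:58171661-58179565 on the plus strand. It was at 35.4, 44 and 57.5 RPKM after DMP-777 and 10.8, 12.9 and 14.5 RPKM after L635. The 3 values of each group lay close together and far from those of the other. The log2 difference was -1.75 ± 0.31 (SE, n = 3 per group, limma adjusted p = 0.308). The other 4 genes of the tunnel exit were nearer to 0, and the median of the 5 was -0.29. Mrpl23, whose product is at the rim of the exit, was at 9.15, 31.7 and 31.2 RPKM after DMP-777 and 18.4, 6.71 and 11.0 after L635, so that its groups overlapped. Mrpl47, also near the exit, was at 9.83, 8.09 and 10.7 RPKM after DMP-777 and 10.9, 9.35 and 8.79 after L635. That is a log2 difference of 0.02 with a 95% interval from -0.78 to 0.82.

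**Figure D3:**
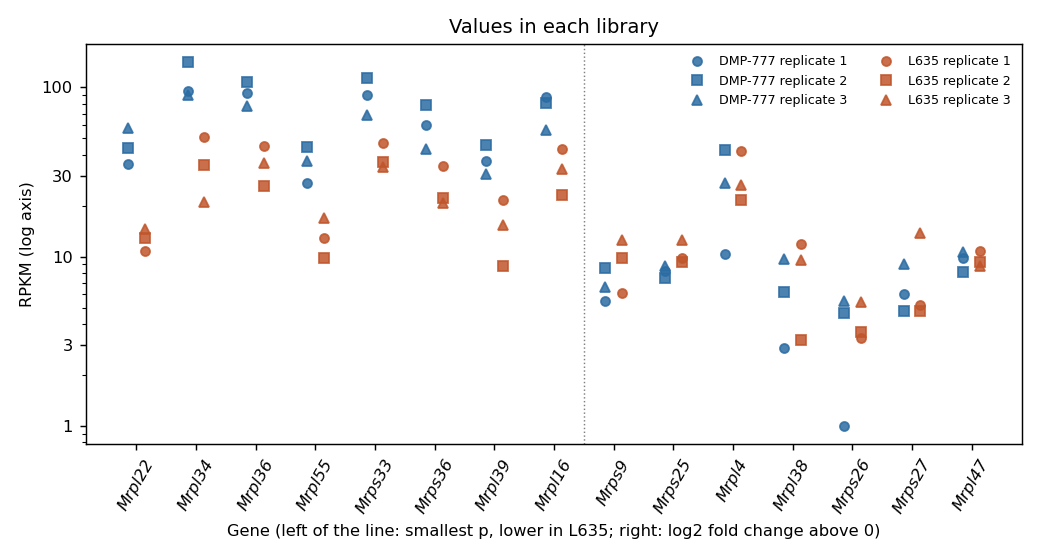
RPKM on a log axis in each library for the genes with the smallest p among those lower and those higher in L635. The lower genes, led by Mrpl22, have 3 DMP-777 values above all 3 L635 values, while those higher in L635 overlap between groups, apart from Mrps25.

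Groups were separated in 21 genes of the large subunit, of which 4 with small p are described next. Mrpl34, for a short RNA-binding protein of the core, lies at chr8:71464926-71465752 and was at 95.9, 141 and 90.8 RPKM after DMP-777 and 50.7, 34.9 and 21.2 after L635. Its log2 difference was -1.65 ± 0.35 (SE, n = 3 per group, limma adjusted p = 0.406). Mrpl36, for a small zinc-binding protein, was at 93.1, 108 and 77.8 RPKM after DMP-777 and 44.8, 26.3 and 36.0 after L635, a log2 difference of -1.37. In both genes the lowest DMP-777 value was well above the highest L635 value. Mrpl16, whose product joins near the catalytic centre, was at 88.4, 81.1 and 56.3 RPKM after DMP-777 and 43.3, 23.2 and 33.1 after L635. Mrpl39, for a mitochondria-specific protein, was at 36.8, 45.7 and 30.8 RPKM after DMP-777 and 21.5, 8.87 and 15.4 after L635. Mrpl16 and Mrpl39 had log2 differences of -1.18 and -1.31 and were likewise separated (limma adjusted p = 0.406 each).

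The stalk of the large subunit is the arm that receives translation factors. All 5 of its genes were lower, with a median of -0.75, and 3 had separated groups. Mrpl12, for the mobile stalk protein, was at 26.5, 75.1 and 36.3 RPKM after DMP-777 and 24.3, 15.4 and 23.3 after L635, a log2 difference of -0.98 (limma adjusted p = 0.435). Mrpl10, for the protein that anchors it, was at 26, 66.1 and 44.1 RPKM after DMP-777 and 33, 17.4 and 26.6 after L635. In both genes DMP-777 replicate 2 stood above all other libraries. Among the 7 genes of the central protuberance, the crown of the large subunit, the median was -0.51 and 6 were lower. Mrpl55, one of them, was at 27.4, 44.3 and 36.6 RPKM after DMP-777 and 13.0, 9.77 and 16.9 after L635, with a log2 difference of -1.39 (limma adjusted p = 0.406).

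In the small subunit, Mrps33, for a protein without a bacterial counterpart, had the smallest p. It was at 90.1, 113 and 68.7 RPKM after DMP-777 and 47.0, 36.2 and 34.0 after L635, a log2 difference of -1.18 with separated groups. The S18 family has 3 paralogs in mammals, whose products sit at different places in the ribosome. Mrps18c was at 59.7, 61.9 and 42.2 RPKM after DMP-777 and 27.6, 24.4 and 28.8 after L635, with a log2 difference of -0.98 and separated groups (limma adjusted p = 0.409). Mrps18b was at 4.47, 12.0 and 12.4 RPKM after DMP-777 and 6.06, 3.0 and 4.52 after L635. Mrps18a, whose product is now placed in the large subunit, was at 4.07, 11.7 and 11.2 RPKM after DMP-777 and 8.90, 3.89 and 6.31 after L635. The groups of Mrps18a and Mrps18b overlapped, through a low DMP-777 replicate 1, and their log2 differences were -0.39 and -0.87. Reads can be shared between paralogs, so their separate levels are uncertain.

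The 7 genes with a positive log2 difference were Mrps9 (0.39), Mrps25 (0.33), Mrpl4 (0.32), Mrpl38 (0.32), Mrps26 (0.27), Mrps27 (0.12) and Mrpl47 (0.02). The limma adjusted p was 0.775 for Mrps9 and 0.78 for Mrps25. Mrps9, for a protein of the small subunit head, was at 5.47, 8.54 and 6.64 RPKM after DMP-777 and 6.14, 9.87 and 12.5 after L635. Mrps25 was at 8.18, 7.44 and 8.83 RPKM after DMP-777 and 9.77, 9.35 and 12.6 after L635, and was the only one of the 7 with separated groups. Of its exonic bases, 69.8% overlap exons of Nr2c2 on the opposite strand, whose log2 difference was 0.23, and the sources used here do not say whether reads were counted by strand. Mrps25 is not alone in this: 17 mitoribosomal genes share at least 10% of their exonic bases with another gene on either strand. Mrpl53, a stalk gene with separated groups and a log2 difference of -0.98, shares 88% with Gm42688 on the same strand. Mrps34 shares 63.4% with Mapk8ip3. Among the others are Mrpl19 (36%), Mrpl43 (33.4%), Mrps18b (30.5%), Mrps27 (24.2%) and Mrps18c (23.2%). For Mrpl4, which reaches into the peptide tunnel, DMP-777 replicate 1 was far below the other 2 libraries of its group: it was at 10.3, 42.5 and 27.3 RPKM after DMP-777 and 42.4, 21.6 and 26.5 after L635. Mrpl38 was at 2.90, 6.22 and 9.66 RPKM after DMP-777 and 12.0, 3.24 and 9.63 after L635. Mrps26 was at the lowest listed value, 1, in DMP-777 replicate 1, then at 4.64 and 5.50, and at 3.31, 3.60 and 5.41 after L635. Without DMP-777 replicate 1 the log2 differences of Mrpl4, Mrpl38 and Mrps26 were -0.22, -0.07 and -0.27.

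Mean levels over the 6 libraries ran from 3.91 RPKM for Mrps26 to 151 for Mrpl42, a 38.7-fold range. Mrpl42, for a mitochondria-specific protein, was at 192, 271 and 131 RPKM after DMP-777 and 128, 104 and 80.7 after L635, a log2 difference of -0.88 with separated groups (limma adjusted p = 0.439). At the low end, Mrps11 was at 3.49, 5.34 and 3.39 RPKM after DMP-777 and 6.10, 1.28 and 6.44 after L635, a log2 difference of -0.02. The steadiest gene was Mrpl18, for a protein that contacts RNA in the central protuberance, at 72.5, 74.7 and 66.0 RPKM after DMP-777 and 48.0, 50.2 and 49.5 after L635. Its groups did not overlap, at a log2 difference of -0.52 (limma adjusted p = 0.526). The within-group SD of log2 values was 0.069 for Mrpl18 and 0.83 for Mrpl23, the most variable. Of the 38 genes with the higher mean levels, 23 were lower at an unadjusted p below 0.05, with a median of -0.80. Of the 38 with the lower levels, 2 were, with a median of -0.44. The latter group also had longer transcripts, with a median exonic length of 4171 nt against 1665.5. The added 1 RPKM and the lowest listed value of 1 compress the differences of low genes. Of the 76 genes, 1 was at that value in any library. With 0.1 RPKM added in place of 1, the median over the 76 genes was -0.64 in place of -0.61. The part of this compression in the contrast by level was not tested. A dependence on level was not confined to this family. The Spearman correlation of log2 difference with mean level was -0.57 across 75 mitoribosomal genes and -0.27 across 12002 tested genes, which are not independent replicates. Shares for all genes of matched level were not computed. Across the 6 libraries, 86.2% of the 2850 pairs of genes had a positive Pearson r, with a median of 0.62. This r spans both treatments, so the difference between them enters it, and all genes of a library share its depth and composition. The same share over all tested genes was not computed, so 86.2% is not read as a trait of the family.

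Differences over all genes moved with gene length, and mitoribosomal genes are short. Their exonic length had a median of 2172 nt (607 to 8631 nt), against 4370 nt for all tested genes. With the tested genes in 10 bins of about equal number by length, the median log2 difference was -0.45 in the bin of the shortest genes (up to 1655 nt) and 0.37 in that of the longest. In the former, 21.3% of genes were at an unadjusted p below 0.05 and lower. The 25 mitoribosomal genes in the bin of the shortest had a median of -0.76, and 12 of them were lower at an unadjusted p below 0.05. In the next bin the 14 mitoribosomal genes had a median of -0.60 against -0.25 for all genes there. After a smooth trend on length and GC was taken out of each library, the median was -0.41 against -0.03 for all genes. Then 64 of 75 were lower, 19 of them at an unadjusted p below 0.05, and 21 had all L635 values below all DMP-777 values in place of 33 (Mrpl33 is not in the annotation used for lengths). Of all genes, 5.43% were then lower at that p and 8.07% separated in that direction. The libraries also differed by GC content: in DMP-777 replicate 1, the level relative to the mean of the other libraries of that treatment had a Spearman correlation with GC of -0.45 across these 75 genes and -0.30 across all genes, which are not independent replicates.

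**Figure D4:**
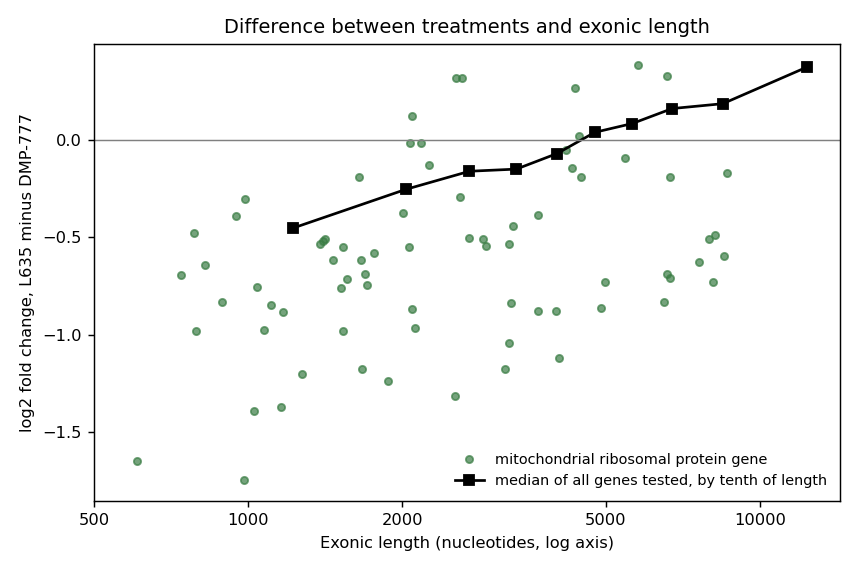
Log2 fold change (L635 minus DMP-777) against exonic length in nt on a log axis for the mitoribosomal genes, with the median of all tested genes in 10 bins of length. The line climbs from -0.45 for the shortest genes to 0.37 for the longest, and the 25 mitoribosomal genes in the shortest bin have a median of -0.76.

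Some mitoribosomal genes start close to a neighbour transcribed the other way. A gene on the opposite strand starting within 500 bp was found for 24 of the 75 in the annotation. For 22 of these the neighbour is outside the family. The share of all genes with such a neighbour was not computed, so the count is not read as a trait of the family. Of the 21 neighbours tested, 11 were lower and 10 higher, with a median log2 difference of -0.03 and 3 lower at an unadjusted p below 0.05. Of their mitoribosomal partners, 20 were lower, with a median of -0.69 and 7 at an unadjusted p below 0.05, and 19 lay below their neighbour. Mrpl51 had a log2 difference of -1.12 against 0.48 for Ncapd2, a condensin gene. The 3 neighbours lower at an unadjusted p below 0.05 by limma were Ndufs6, Psma2 and Ptcd2. Ndufs6, a respiratory complex I gene beside Mrpl36, had -0.93. The proteasome gene Psma2 beside Mrpl32 had -0.77 against -0.73, and Ptcd2 had -0.72 against 0.12 for Mrps27. Fau, beside Mrpl49, was at -0.56 with separated groups. Sars2, a mitochondrial aminoacyl-tRNA synthetase gene beside Mrps12, was at -0.03. In some pairs, such as Mrpl36 and Ndufs6 with 30 shared exonic nt, the starts overlap, and reads could be shared if strand was ignored. The neighbours are longer, with a median of 5069 nt against 2064. They are also less abundant, with a median level of 5.53 RPKM against 21.8, and 7 of the 21 were at the lowest listed value in at least 1 library, where the added 1 RPKM compresses differences. After that trend on length and GC was taken out, the medians were 0.02 for the neighbours and -0.55 for the mitoribosomal genes.

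**Figure D5:**
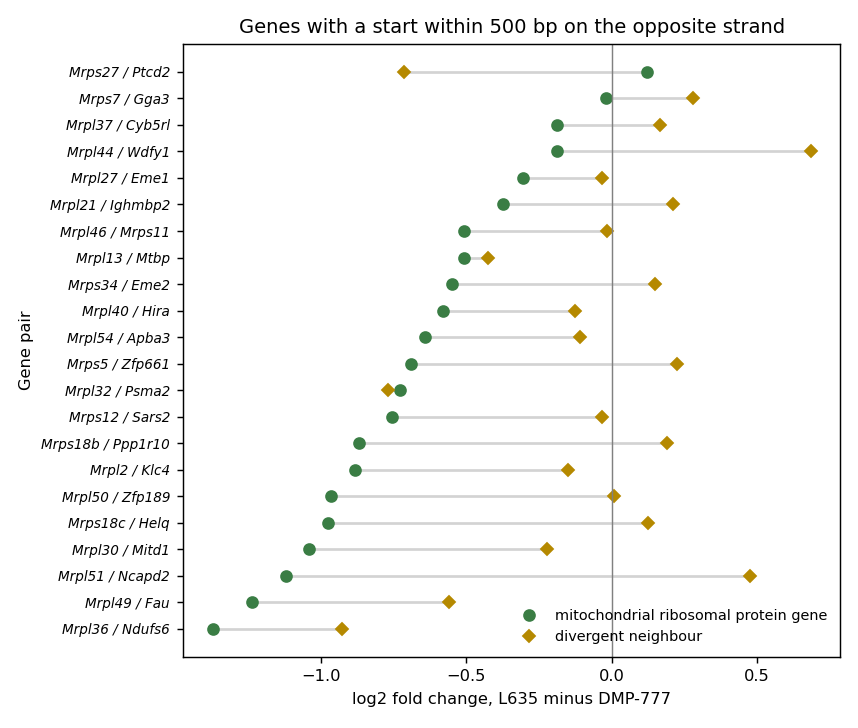
Log2 fold changes (L635 minus DMP-777) of the mitoribosomal gene and of its neighbour, for starts within 500 bp on opposite strands. Drawn are the 21 pairs with a tested neighbour outside the family. Mrpl46 (-0.51) is also drawn, with Mrps11 (-0.02), itself a mitoribosomal gene, in the place of the neighbour. In some pairs the starts overlap. Over the 21 pairs, the mitoribosomal gene lies below its neighbour in 19, with medians of -0.69 and -0.03.

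Other genes of the same pathway were divided. The 7 mitoribosomal proteins listed under other names were all lower, with a median of -0.50, and Mrp63 had the smallest p. It was at 39.3, 39.5 and 20.3 RPKM after DMP-777 and 19.4, 10.2 and 11.0 after L635, a log2 difference of -1.22 (limma adjusted p = 0.411). Lists of factors that work on or with this ribosome had medians nearer to 0. Their genes are also less abundant, with list medians of 4.28 to 6.07 RPKM against 21.4 for the mitoribosomal genes. They are longer too, with list medians of 3761.5 to 5173.5 nt against 2172. With the trend on length and GC taken out, the list medians were -0.20 to -0.02 against -0.41. The part of level and length in this contrast was not tested further. Of 16 translation factors 9 were lower and 7 higher, with a median of -0.18 and 0 at an unadjusted p below 0.05 in either direction by limma, and 0 passed the adjusted threshold. Tufm, the elongation factor that delivers tRNAs, had a log2 difference of 0.04, and Oxa1l, which inserts new proteins into the inner membrane, one of -0.76. Of 20 mitochondrial aminoacyl-tRNA synthetases 11 were lower, with a median of -0.04, and the only one at an unadjusted p below 0.05 was Cars2, higher at 1.45 (limma adjusted p = 0.414). Of 23 ribosome assembly factors 11 were lower, with a median of 0.00. Among them Ddx28 and Mpv17l2, both needed for the large subunit, were at -1.23 and -1.14. The 8 genes of mitochondrial DNA transcription and replication had a median of 0.00, with Tfam at 0.29, Polrmt at 0.04 and Polg2 at 1.47 (limma adjusted p = 0.411 for Polg2).

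Of the nuclear regulators of mitochondrial genes, 4 were lower and 4 higher. Nrf1 was at 0.67 with separated groups, Gabpa at 0.35, Esrra at -0.52 with separated groups and Ppargc1a at -0.54 on the log2 scale, and 0 of the 8 had an unadjusted or adjusted p below 0.05 by limma. Of 20 import genes, 16 were lower, with a median of -0.55, among them Tomm5 at -1.17 and Timm17a at -1.06. Nuclear respiratory chain genes, which with the products of this ribosome make up the chain, were lower in 77 of 78, with a median of -0.74 and 37 at an unadjusted p below 0.05 (47.4%). Their median was -0.51, with 19 at that p, once length and GC were taken out, and -0.23 with the epithelial level in the fit. Cytosolic ribosomal protein genes, also short, were also lower in 77 of 78, with a median of -0.39. Of these, 5 were lower at an unadjusted p below 0.05 by limma (6.41%, near the 6.33% of all genes). Groups were separated, with L635 lower, in 23 of them (29.5%), against 8.75% of all genes. Among the respiratory chain genes 29 were so separated (37.2%). The cytosolic median of -0.39 became -0.17 and -0.13 under the same 2 corrections. Differences between these lists were not tested. Transcripts of mitochondrial DNA were not analysed here.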

How the data were processed

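Total RNA of F4/80-sorted corpus cells was amplified with a NuGEN kit before single-end sequencing, per the labels' protocols. FastQC, TopHat 1.4, SAMtools and the mm9 build are named without roles in the submitters' processing notes. The sources used here name no quantifier, annotation or strand handling. The deposited table holds normalized values per gene and library, with a lowest value of exactly 1. The deposited unit was taken as RPKM from the values: multiplied by gene length, low values show a weak stepping, which put the depth at about 4300000 to 20900000 reads per library. The stepping was weak in all 6 libraries and weakest in DMP-777 replicate 1, so unit and depths are inferred. They put the median mitoribosomal gene at 121 to 746 reads per library. There were 0 per-sample columns left unused.

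Groups came from the sample titles. Genes above 1 RPKM in at least 3 libraries were tested (12102) with limma 3.58.1 (R 4.3.3) on log2(RPKM + 1), moderated with a mean-variance trend, two-sided, with Benjamini-Hochberg adjustment over all tested genes at 0.05. Fold changes are on that scale and understate those of low genes. Lengths and GC content are from GENCODE M21. Of the 22268 identifiers found there, 99.8% overlap the same gene, so coordinates are given as GRCm38. The fit was tested on simulated data, in 10 runs that each gave 200 of the 12102 genes a known difference. These 200 came from the genes above the median level, and noise was independent for each gene and library.

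The genes, gene lists and the naming rule were chosen with earlier results of these data known. The rule took the 8 smallest p in each direction, the 5 highest and lowest levels, the 3 most and least variable, the S18 paralogs, genes of named large-subunit regions, and up to 3 per other list, and the text prints part of them. Alternatives covered the pseudocount, filter, centring, quantile normalization, array weights, trend, length and GC content, an epithelial covariate and each library left out.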

Additional observations from a re-analysis of the deposited data

How the results depend on the processing

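Over the alternatives tried, the count of mitoribosomal genes lower in L635 stayed between 60 and 70. All alternatives kept the median below 0. Over all genes, 0 passed in the full comparison and 1, 9130204L05Rik, without DMP-777 replicate 3, so the range over left-out libraries was 0 to 1. The 25 mitoribosomal genes at an unadjusted p below 0.05 became 16 after quantile normalization and 5 with the epithelial covariate, and 13 to 30 with a library left out. The 33 with separated groups became 21 with length and GC content removed, 20 with length alone removed (chosen after seeing the data) and 33 to 50 with a library left out. With 5 libraries separation is easier, and over all genes its share was then 10.6% to 17.9%, against 8.75%. The median ranged from -0.77 to -0.43 with a library left out. With the epithelial covariate 13 of the 76 genes had the other sign than in the main comparison, and with length and GC content removed 6 of 75. Among the 15 genes followed through every alternative, the 8 with the smallest p among those lower and the 7 higher, the sign turned for 5. Mrpl4 ranged from -0.22 to 0.75 over left-out libraries, Mrpl38 from -0.07 to 0.81, Mrps26 from -0.27 to 0.58, Mrps27 from -0.32 to 0.37 and Mrpl47 from -0.08 to 0.10. With the epithelial covariate Mrps26 was at -0.10, Mrps27 at -0.40 and Mrpl47 at -0.00. Mrpl47 was also at -0.07 with median centring, -0.05 after quantile normalization and -0.01 with length and GC content removed. The cause of these shifts was not tested. Median centring moved the median of all genes to -0.09. No paired analysis was possible because the title numbers only identify libraries and no number occurs in both groups. The shallowest library, L635 replicate 2, held an estimated 12 reads for its least covered mitoribosomal gene, which limits the precision of low genes.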
